A study of Mus musculus with 12 samples.

Results

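Chemokine ligand genes were taken as the gene names of the form Ccl or Cxcl followed by a number (with a letter where the name has one), together with Cx3cl1. The rule found 37 of the 43243 gene names measured, of which 23 encode CC chemokines, 13 encode CXC chemokines and 1 encodes the CX3C chemokine. The RNA came from organoids of the mouse prostate, grown in Matrigel from digested tissue in medium with EGF. The 6 SPOPmut libraries carry mutant SPOP, the substrate-binding subunit of a cullin ubiquitin ligase, and the 6 SPOPwt libraries are their controls. Both are numbered S0 to S5 and were treated as 6 pairs. The labels describe a tamoxifen-activated Cre, CreERT2, switched on overnight by 1 uM 4-hydroxytamoxifen. It was brought in by a virus with puromycin selection in model A, or came from a transgene under Tmprss2, a gene of prostate luminal cells, in model B. The protocols give 5 pairs of model A and 1 pair of model B without saying which is which. They also describe organoids with Cre under the Probasin promoter, and no library is tied to them. Mutant cells were sorted by GFP and controls were passed through the sorter as a sham, so that an effect of mutant SPOP and one of the selection cannot be told apart. No label says that the pairs are separate mice, so the p-values below measure the spread between these libraries, which may be technical.

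Chemokines are small secreted proteins that guide leukocytes along a gradient by binding G protein-coupled receptors. CC chemokines mostly attract monocytes, lymphocytes and eosinophils, and a group of CXC chemokines that bind Cxcr2 attracts neutrophils. In the prostate they are made by epithelial and stromal cells, and in many cell types their genes are switched on by NF-kB or interferon signalling.

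Expression was deposited as RPKM, reads scaled to transcript length and to library depth, so levels of different genes can be set side by side. Each library held an estimated 28400000 to 40800000 reads. The organoid label was checked against marker genes. Keratin 5, a basal epithelial keratin, stood at 1705 RPKM (S5 SPOPmut) and 1194 RPKM (S5 SPOPwt), and did not exceed 0.241 RPKM in any of the 10 S0 to S4 libraries. Col1a1, a collagen chain of fibroblasts, was the reverse, at 0.202 and 0.162 RPKM in the S5 libraries and 269 to 848 RPKM in S0 to S4. Other epithelial markers were higher in S5 but not absent from S0 to S4, such as the luminal keratins Krt18 (598 to 599 RPKM in S5 against 6.35 to 89.6 RPKM in S0 to S4) and Krt19 (336 to 413 against 7.06 to 72.2 RPKM) and the surface protein Cd24a (195 to 233 against 32.4 to 90.6 RPKM). Hoxb13, a prostate homeobox gene, was lower in S5 (4.43 to 5.04 RPKM) than in S0 to S4 (10.4 to 29.9 RPKM), and the adhesion genes Epcam and Cdh1 did not exceed 1.34 RPKM in S0 to S4. The S0 to S4 libraries thus held both epithelial and mesenchymal transcripts, and are described apart from S5. The basal keratins Krt5 and Krt14 were near 0 in them, while the basal keratin Krt15 was at 0.58 to 8.15 RPKM, against 127 to 142 RPKM in S5. Of 12 leukocyte markers, 11 were found and 5 reached 1 RPKM in some library. Their summed level was 13.2 to 33.5 RPKM in SPOPmut and 9.38 to 31.3 RPKM in SPOPwt, most of it Cd14. Cd68 was at 2.1 to 4.7 RPKM and Csf1r at 1.09 to 3.83 RPKM over the 12 libraries, and S100a8 reached 4.49 RPKM and Ly6g 1.05 RPKM. The pan-leukocyte gene Ptprc and the T cell gene Cd3e were at or near 0.

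Of the 37 genes, 20 reached 1 RPKM in at least 1 library and 17 did not. At 1 RPKM or more, 12 genes stood in both S5 libraries, 9 in all 10 libraries of S0 to S4 and 5 in all 12, namely Cx3cl1, Cxcl2, Cxcl5, Cxcl10 and Cxcl15. Ccl2 was the most abundant of them in 9 of the 10 S0 to S4 libraries, and Cxcl5 in the S3 SPOPwt library. Cxcl1 led in S5, at rank 115 among all genes in SPOPmut and 130 in SPOPwt. In total the 37 genes took 0.194% and 0.167% of the summed RPKM in the S5 SPOPmut and SPOPwt libraries, and 0.143 to 0.680% in S0 to S4. In bulk RNA, fewer cells of a type and less RNA per cell cannot be told apart.

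**Figure D1:**
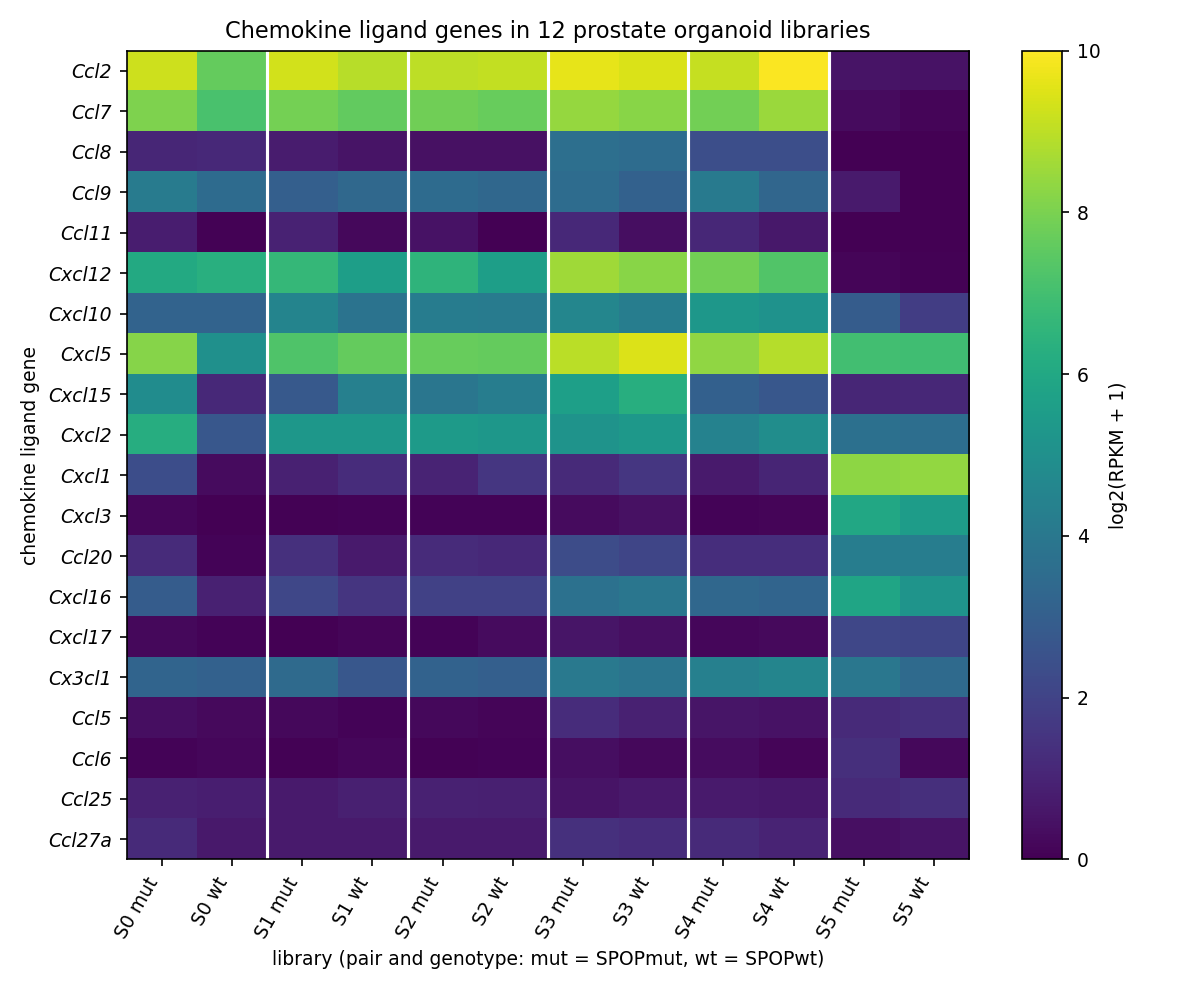
Level of the 20 chemokine ligand genes at 1 RPKM or more in some library, as log2(RPKM + 1), with the 12 libraries in columns (SPOPmut left of SPOPwt within each pair). Ccl2, Ccl7 and Cxcl12 are bright in S0 to S4 and dark in S5, Cxcl1 and Cxcl3 are the reverse, and the S0 SPOPwt column is darker than the other SPOPwt columns of S0 to S4 for Cxcl5, Cxcl15 and Cxcl2.

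The neutrophil chemokine genes of chromosome 5 were divided between S5 and S0 to S4. On GRCm38 they lie within 90759360 to 90905938, in the order Cxcl5, Cxcl3, Cxcl15, Cxcl1 and Cxcl2. RefSeq promoter windows (GRCm38.p6) were at hand for 4 of these 5 genes and for 26 of the 37 in all. They are shown because neighbouring genes with the same 10 letters differed in where they were expressed. Each window is 300 bases, from 250 before to 50 after the RefSeq start, and shares of windows refer to that length. Printed are the 140 bases before the start on the plus strand, with a match to the NF-kB consensus in capitals. Both strands were searched, and the 2 strands' matches overlap, hence 11 capitals.
Cxcl3 at chr5:90785961-90786100: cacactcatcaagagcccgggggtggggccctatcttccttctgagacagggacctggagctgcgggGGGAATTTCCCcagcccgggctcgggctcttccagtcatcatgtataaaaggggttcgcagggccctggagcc
Cxcl15 at chr5:90794394-90794533: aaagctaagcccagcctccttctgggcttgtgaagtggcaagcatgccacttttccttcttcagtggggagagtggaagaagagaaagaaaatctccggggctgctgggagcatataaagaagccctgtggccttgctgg
Cxcl1 at chr5:90891105-90891244: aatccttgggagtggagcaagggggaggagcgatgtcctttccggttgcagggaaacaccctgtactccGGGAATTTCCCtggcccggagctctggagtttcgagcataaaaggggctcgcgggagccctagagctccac
Cxcl2 at chr5:90903759-90903898: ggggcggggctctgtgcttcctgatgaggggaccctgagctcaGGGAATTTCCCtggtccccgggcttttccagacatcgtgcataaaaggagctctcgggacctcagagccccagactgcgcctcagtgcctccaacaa
The letters GGGAATTTCC began 71 bases before the start of Cxcl1, 97 before that of Cxcl2 and 73 before that of Cxcl3. They are 1 spelling of the NF-kB consensus and occurred in 29 of the 32851 windows of the table (0.0883%), on either strand. The consensus itself was in 4.51% of windows and in those of 7 of the 26 chemokine genes, Ccl20, Ccl27a, Ccl9, Cxcl1, Cxcl10, Cxcl2 and Cxcl3. The letters of the consensus were not in the 140 bases of Cxcl15. A match in these windows is a description of the letters and not evidence of binding.

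Cxcl1, a main Cxcr2 ligand of mouse, stood at 310.5 RPKM (S5 SPOPmut) and 330 RPKM (S5 SPOPwt). The S0 to S4 libraries had 4.19, 0.893, 1.01, 1.26 and 0.652 RPKM in SPOPmut and 0.219, 1.39, 1.98, 2.03 and 1.02 RPKM in SPOPwt. The S5 mean was 280.6 times the S0 to S4 median, with no overlap. Cxcl3, a close relative, was as sharply divided, at 62.4 RPKM (S5 SPOPmut) and 44.8 RPKM (S5 SPOPwt) against 0.0260 to 0.370 RPKM in S0 to S4. Cxcl2, which has the same 10 letters, did not share that pattern. It was expressed in every library, at 11.8 RPKM in the S5 SPOPmut library and 11.3 RPKM in the S5 SPOPwt library, against a median of 38.1 RPKM in S0 to S4. Reads can move between Cxcl2 and Cxcl3, since 5.78% of the 51-base words of Cxcl2 also occur in Cxcl3.

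Cxcl5, which recruits neutrophils to epithelial surfaces, was abundant on both sides. It stood at 124 RPKM (S5 SPOPmut) and 121 RPKM (S5 SPOPwt). In S0 to S4 it was at 289, 152, 204, 496 and 324 RPKM in SPOPmut and at 31.0, 199, 200, 715 and 468 RPKM in SPOPwt. Only the S0 SPOPwt library lay below S5. Cxcl15, known in mouse as lungkine from airway epithelium, was at 1.10 RPKM (S5 SPOPmut) and 1.17 RPKM (S5 SPOPwt). Its S0 to S4 values were 28.3, 6.01, 14.2, 48.4 and 7.32 RPKM in SPOPmut and 1.24, 19.3, 18.1, 77.0 and 5.52 RPKM in SPOPwt. The S0 SPOPwt library was again down at the S5 level. Ppbp, a neighbour in the same cluster with a name outside the rule, was the extreme case. It is best known from platelets and stood at 1286 RPKM (S5 SPOPmut) and 2088 RPKM (S5 SPOPwt), rank 7 to 9 among all genes, and its highest S0 to S4 value was 4.50 RPKM.

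**Figure D2:**
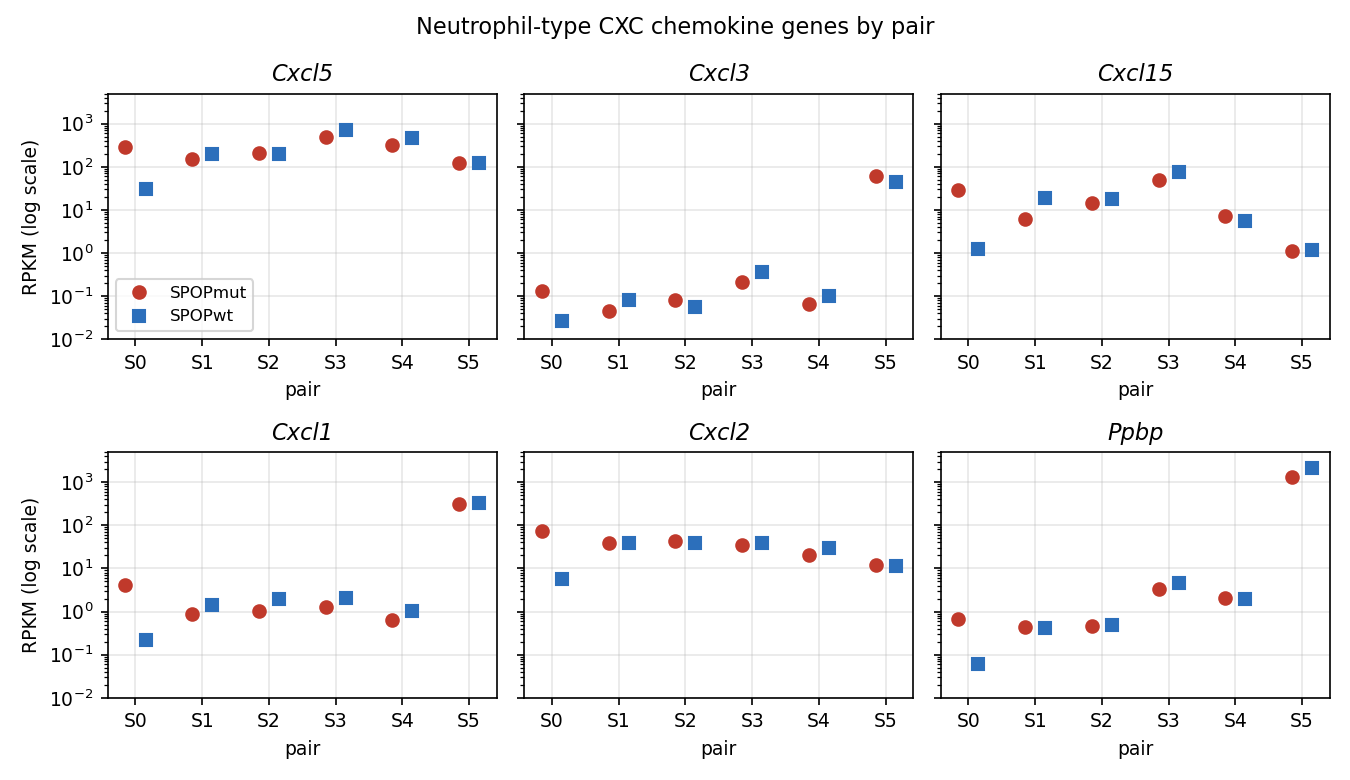
RPKM on a log scale of the chromosome 5 chemokine genes Cxcl5, Cxcl3, Cxcl15, Cxcl1 and Cxcl2 and of their neighbour Ppbp, by pair (circles SPOPmut, squares SPOPwt, 1 library each). Cxcl1, Cxcl3 and Ppbp are high only in S5, Cxcl2 and Cxcl5 are expressed in all 12 libraries, and in S0 the SPOPmut circle lies above the SPOPwt square for all 6 genes.

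For the 20 genes, as for all genes, 0.1 RPKM was added to each value before folds were taken. Of the 20, 5 had both S5 libraries above all 10 of S0 to S4 by at least 2-fold (Ccl20, Cxcl1, Cxcl3, Cxcl16 and Cxcl17), where 8.17% of 16043 genes did. Another 5 had both S5 libraries below all 10 by at least 2-fold (Ccl2, Ccl7, Ccl8, Ccl9 and Cxcl12), where 8.62% of genes did. The other 10 did neither. Ccl11 was among them only because of the added 0.1 RPKM, since it was listed at 0 in S5 and at 0.0262 RPKM or more in S0 to S4. Cxcl3 and Cxcl17 reached 1 RPKM only in S5, and Ccl2, Ccl7, Ccl8, Ccl9 and Cxcl12 only in S0 to S4. These genes thus entered the 20 through the side on which they were high. S5 is also 1 pair and was set apart by marker genes of these same libraries, so the counts carry no test and are not support.

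Ccl2, which calls monocytes out of the bone marrow through Ccr2, was at 0.441 RPKM (S5 SPOPmut) and 0.422 RPKM (S5 SPOPwt). The S0 to S4 libraries had 597.6, 637.5, 518.2, 784.8 and 551.6 RPKM in SPOPmut and 196.8, 485.3, 542.2, 686.6 and 991.6 RPKM in SPOPwt. The S5 mean was 1332-fold below the S0 to S4 median, and even the lowest library of S0 to S4 was far above it. Ccl7, another Ccr2 ligand, had the same division on a lower level. It was at 0.240 RPKM (S5 SPOPmut) and 0.0908 RPKM (S5 SPOPwt), against 139.5 to 356.3 RPKM in S0 to S4. Ccl2, Ccl7, Ccl11 and Ccl8 lie in that order on chromosome 11, within 82035571 to 82116799. Cxcl12, the stromal Cxcr4 ligand that retains blood stem cells and lymphocytes, was at 0.0959 RPKM (S5 SPOPmut) and 0.0551 RPKM (S5 SPOPwt). In S0 to S4 it was at 65.8, 98.8, 89.4, 376 and 230 RPKM in SPOPmut and at 78.7, 47.6, 48.0, 296 and 153 RPKM in SPOPwt. It was highest in S3 and S4 of either genotype.

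Ccl9, a Ccr1 ligand of mouse, was at 0.670 RPKM (S5 SPOPmut) and 0.0240 RPKM (S5 SPOPwt), against 7.08 to 16.8 RPKM in S0 to S4. Ccl8, which in mouse acts on Ccr8, was listed at 0 in both S5 libraries. It was at 11.6 RPKM (S3 SPOPmut) and 10.5 RPKM (S3 SPOPwt), at 4.31 and 4.27 RPKM in S4, and at 0.366 to 1.21 RPKM in S0 to S2. The 2 genotypes of a pair lay close together, while the pairs lay far apart.

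Among the genes higher in S5, Cxcl16, a membrane-bound ligand of Cxcr6, was at 58.6 RPKM (S5 SPOPmut) and 35.0 RPKM (S5 SPOPwt), against 0.898 to 14.0 RPKM in S0 to S4. Some 18.3% of its exon bases overlap Zmynd15 on the opposite strand, and the library kit does not mark strand, so reads of the pair cannot be told apart there. Cxcl17, a chemokine of mucosal epithelia, was at 3.39 RPKM (S5 SPOPmut) and 3.26 RPKM (S5 SPOPwt) and did not exceed 0.468 RPKM in S0 to S4. Ccl20, the Ccr6 ligand of barrier epithelia, was at 17.8 RPKM (S5 SPOPmut) and 18.1 RPKM (S5 SPOPwt). Its S0 to S4 values were 1.37, 1.62, 1.35, 4.07 and 1.49 RPKM in SPOPmut and 0.0648, 0.637, 1.23, 3.27 and 1.47 RPKM in SPOPwt. The 140 bases before its RefSeq start on the plus strand hold 1 NF-kB match, read on the minus strand and set in capitals.
Ccl20 at chr1:83116626-83116765: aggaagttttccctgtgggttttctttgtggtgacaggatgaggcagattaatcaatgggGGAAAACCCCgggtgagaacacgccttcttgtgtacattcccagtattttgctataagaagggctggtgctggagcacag

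Cxcl10, an interferon-induced ligand of Cxcr3 on T cells, and Cx3cl1, the membrane-bound ligand of Cx3cr1 known as fractalkine, were expressed on both sides. Cxcl10 was at 6.46 RPKM (S5 SPOPmut) and 2.48 RPKM (S5 SPOPwt). In S0 to S4 it was at 7.98, 21.8, 17.6, 22.9 and 38.2 RPKM in SPOPmut and at 7.99, 13.0, 16.7, 18.0 and 33.7 RPKM in SPOPwt. S5 was lowest, S0 next and S4 highest. The 240 bases before its RefSeq start on the minus strand are shown because they hold 3 of the motifs searched. Capitals mark, from left to right, GAAA, 2 bases and GAAA again (a pattern bound by interferon regulatory factors, in 3.44% of windows), 2 NF-kB matches, and TGANTCA (the AP-1 pattern, in 7.81% of windows), both strands searched.
Cxcl10 at chr5:92348890-92349129: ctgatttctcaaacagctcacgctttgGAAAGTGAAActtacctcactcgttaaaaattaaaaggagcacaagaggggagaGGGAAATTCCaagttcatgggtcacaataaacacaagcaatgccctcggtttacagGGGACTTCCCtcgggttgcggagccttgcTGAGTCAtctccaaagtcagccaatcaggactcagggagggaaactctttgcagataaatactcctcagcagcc
Cx3cl1 was at 14.6 RPKM (S5 SPOPmut) and 9.92 RPKM (S5 SPOPwt). The S0 to S4 libraries had 8.24, 10.0, 7.96, 15.5 and 19.2 RPKM in SPOPmut and 7.53, 5.61, 7.15, 13.6 and 22.7 RPKM in SPOPwt. S5 lay inside the range of S0 to S4, and the S4 pair was highest.

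The remaining genes past 1 RPKM were scarce. Ccl11, or eotaxin, which attracts eosinophils through Ccr3, was listed at 0 in S5 and reached 1.25 RPKM in S0 to S4. Ccl5, which attracts T cells, was at 1.30 RPKM (S5 SPOPmut) and 1.56 RPKM (S5 SPOPwt), against 0.0844 to 1.40 RPKM in S0 to S4. Ccl6, a mouse Ccr1 ligand, reached 1 RPKM in the S5 SPOPmut library alone, at 1.56 RPKM against 0.171 RPKM in S5 SPOPwt. Ccl25, the Ccr9 ligand of thymus and gut, was at 1.28 RPKM (S5 SPOPmut) and 1.55 RPKM (S5 SPOPwt), against 0.458 to 0.907 RPKM in S0 to S4. Some 2.7% of Ccl25 exon bases overlap Elavl1 on the opposite strand, where reads of these genes cannot be told apart, so its low values are uncertain. Ccl27a, a Ccr10 ligand of skin, was at 0.342 RPKM (S5 SPOPmut) and 0.434 RPKM (S5 SPOPwt), against 0.598 to 1.62 RPKM in S0 to S4. It shares 44.5% of its 51-base words with other genes, Ccl27b among them, and is uncertain. Of the 17 genes that stayed under 1 RPKM, 6 were listed at 0 in all 12 libraries (Ccl19, Ccl21a, Ccl21b, Ccl24, Ccl26 and Ccl27b). Of these, Ccl21b, Ccl27b, Ccl21a and Ccl19 share 100%, 98.1%, 71.2% and 51.7% of their 51-base words with other genes, and how such reads were counted is not given in the sources used here, so their 0 is uncertain. The highest value among the other 11 was 0.490 RPKM, of Cxcl14, and next came Ccl4 (0.449 RPKM), Ccl28 (0.388 RPKM) and Ccl17 (0.262 RPKM). The interferon-induced partners of Cxcl10, Cxcl9 and Cxcl11, reached only 0.167 RPKM each. Cxcl11 is listed as a polymorphic pseudogene in GENCODE M21 and shares 40.4% of its 51-base words with other genes, so its value is uncertain.

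For differences among the pairs, limma's moderated F-test was run on log2(RPKM + 1), with genotype in the fit, for the 13600 genes at 1 RPKM or more in at least 6 libraries. Of the 13 chemokine ligand genes among them, 11 differed at an adjusted p under 0.05, where 68.2% of all genes did. Of these 13, Ccl2, Ccl7, Ccl8, Ccl9 and Cxcl12 passed the filter through S0 to S4 libraries alone, which bears on their part of that count. The 2 that missed it were Cxcl2 (adjusted p = 0.39) and Cxcl5 (adjusted p = 0.0957). Among S0 to S4 alone, 5 of the 13 differed, where 28.7% of all genes did. They were Ccl8 (adjusted p = 0.00091), Cxcl10 (adjusted p = 0.0061), Cxcl12 (adjusted p = 0.00756), Cx3cl1 (adjusted p = 0.013) and Ccl20 (adjusted p = 0.0407). Among S0 to S4, the highest pair was S3 or S4 for each of these 5. Among S1 to S4, with S0 left out as well, 10 of the 13 differed, where 62.9% of all genes did, and all but Ccl2, Ccl7 and Ccl9 were among them. Of the 9 fibroblast and smooth muscle markers, 5 had all 4 libraries of S3 and S4 above all 6 of S0 to S2 (Col1a1, Col1a2, Pdgfra, Pdgfrb and Cdh11), Vim had them below, and Col3a1, Acta2 and Tagln overlapped. Pdgfra, a growth factor receptor, was at 33.2 to 38.8 RPKM in S3 and S4 and at 3.64 to 10.4 RPKM in S0 to S2, and the collagen chain Col1a2 at 12.2 to 12.9 and at 0.673 to 1.22 RPKM. Vim, vimentin, was at 212 to 296 RPKM in S3 and S4 and 361 to 525 RPKM in S0 to S2. The part of these markers in the chemokine values was not tested.

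Genotype was compared within pairs, by limma with the pair as a block. None of the 13 genes passed an adjusted p of 0.05, and neither did any of the 13600 genes (0%). At an unadjusted p under 0.05 there were 3 of the 13, all higher in SPOPmut, where 3.82% of all genes were higher at that level and 5.6% differed in either direction. The mean of the 6 pairs was above 0 for all 13 genes, with a median of 0.30 on the log2 scale against 0.00055 over all genes, but without S0 it was below 0 for Ccl2, Cxcl1, Cxcl2, Cxcl5 and Cxcl15. No gene was higher in SPOPmut in all 6 pairs, where 3.62% of all genes were, and none was lower in all 6, where 1.68% were. Within single pairs, the 13 genes split into 10 higher and 3 lower in SPOPmut in S0, 8 and 5 in S1, S2 and S3, 7 and 6 in S4, and 9 and 3 in S5. Over all genes, 49.2% were higher in SPOPmut in S0, 58.9% in S1, 65.7% in S2, 51.3% in S3, 42.0% in S4 and 49.5% in S5, so that the splits in S1 and S2 were close to those of all genes. The median difference of the 13 was 1.16 in S0 and 0.01 to 0.34 in the other pairs.

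**Figure D3:**
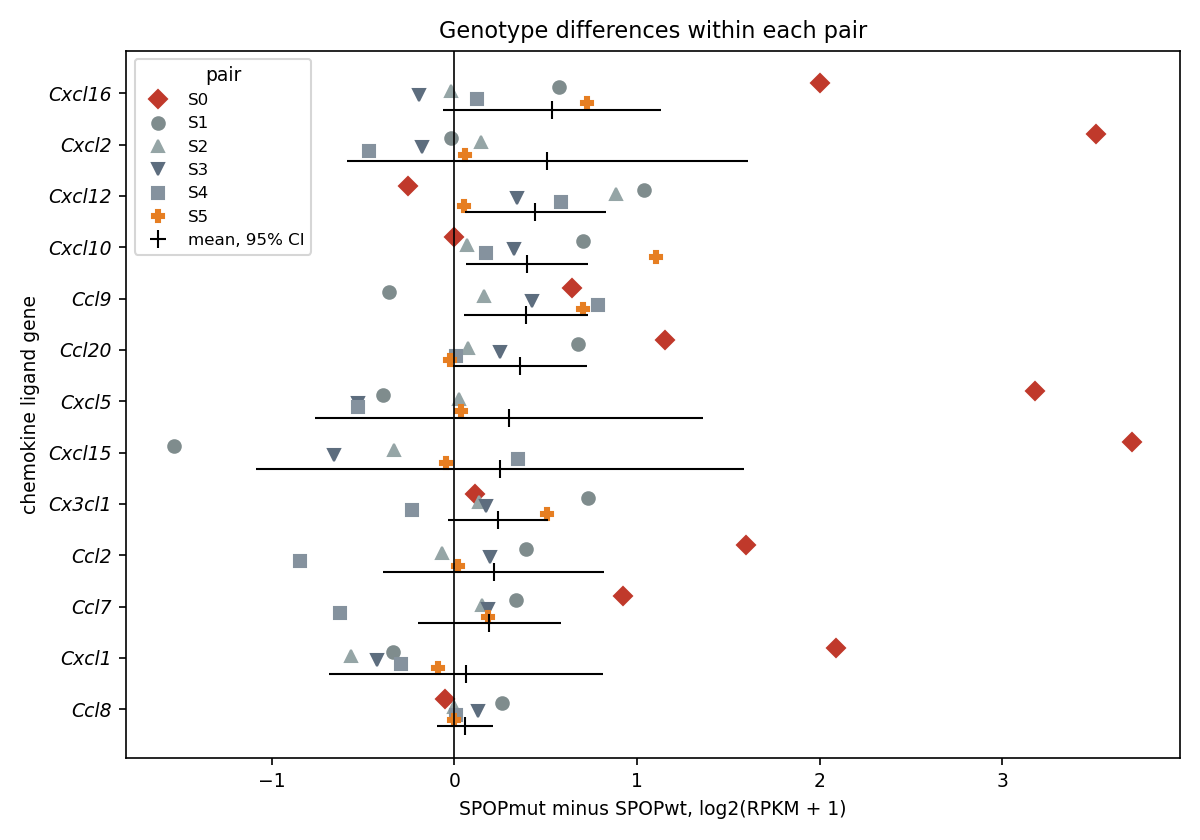
Difference SPOPmut minus SPOPwt in log2(RPKM + 1) for the 13 tested chemokine ligand genes, 1 symbol for each pair, with the mean of the 6 pairs and its 95% confidence interval from limma in black. The red S0 diamonds of Cxcl15, Cxcl2, Cxcl5 and Cxcl1 stand more than 2 units to the right of 0 while the other pairs stay near or left of it, and the interval lies wholly above 0 for Cxcl10, Ccl9 and Cxcl12 before adjustment.

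The 3 genes of smallest p were Cxcl10, Ccl9 and Cxcl12, each higher in SPOPmut in 5 of 6 pairs. Cxcl10 was higher by 0.40 on the log2 scale (SE 0.15, 95% confidence interval 0.06 to 0.73, limma adjusted p = 0.881). The exception was S0, with 7.98 RPKM for SPOPmut and 7.99 RPKM for SPOPwt. The within-pair ratio of SPOPmut to SPOPwt was 2.61 in S5 and 1.68 in S1, and 1.05 to 1.27 in S2, S3 and S4. Ccl9 was higher by 0.39 (SE 0.15, 95% confidence interval 0.05 to 0.73, limma adjusted p = 0.881). It was at 16.8, 7.08, 10.2, 10.6, 15.8 and 0.670 RPKM in SPOPmut, S0 to S5, and at 10.4, 9.37, 9.03, 7.60, 8.75 and 0.0240 RPKM in SPOPwt, and S1 was the pair in which it was lower in SPOPmut.

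Cxcl12 was higher by 0.44 (SE 0.17, 95% confidence interval 0.06 to 0.83, limma adjusted p = 0.881). S1 and S2 differed most, with 98.8 and 89.4 RPKM in SPOPmut against 47.6 and 48.0 RPKM in SPOPwt, while S0 went the other way. Without S0 the difference was 0.58 (adjusted p = 0.475). With pairs weighted by their fit to the others it was 0.70 (adjusted p = 0.0521), the smallest for the 13 genes in 16 settings. S2 had the largest weight (4.61) and S0 the smallest (0.161), so that value leans on S2. S1 and S2 were also nearly alike over all genes (correlations of 0.997 in SPOPwt and 0.994 in SPOPmut). Ackr3, the atypical receptor that scavenges Cxcl12, was at 14.6, 25.2, 20.9, 41.2, 31.8 and 4.27 RPKM in SPOPmut, S0 to S5, and at 6.05, 13.4, 14.0, 33.9, 38.8 and 2.52 RPKM in SPOPwt. It was higher in SPOPmut in 5 of 6 pairs, by 0.52 (SE 0.17, limma adjusted p = 0.881). The fibroblast markers of smallest p stood on the same side. Cdh11 was higher in SPOPmut in 6 of 6 pairs by 0.72 (limma adjusted p = 0.769). Pdgfrb was higher in 6 of 6 by 0.61 (adjusted p = 0.801) and Pdgfra in 6 of 6 by 0.42 (adjusted p = 0.881). In S5 these genes did not exceed 0.143 RPKM, so that pair rests on values near 0. Over the 9 fibroblast and smooth muscle markers, 7 means were above 0, where 50.2% of all genes were. Those of Col1a1 (-0.03) and Tagln (-0.19) were below 0. The summed level of the 9 was 4.44 to 2501 RPKM in SPOPmut and 2.88 to 2082 RPKM in SPOPwt, with S5 lowest. Luminal epithelial markers also stood on that side, with 4 of 5 tested means above 0, and 3 without S0. Krt8, a luminal keratin, was higher in SPOPmut in 6 of 6 pairs by 1.09 (limma adjusted p = 0.769). Hoxb13 was higher in 6 of 6 by 0.17 (limma adjusted p = 0.881), and Krt19 had a mean of -0.52. The part of such markers in the Cxcl12 values was not tested.

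Ccl11 was too scarce for the filter. It entered a wider one, of genes at 1 RPKM or more in at least 2 libraries (15508 genes, of which 19 were chemokine ligand genes), only through the S3 and S4 SPOPmut libraries, the genotype in which it was higher, so its values are given as a description with no test. It was at 0.751, 0.933, 0.385, 1.25 and 1.16 RPKM in SPOPmut, S0 to S4, and at 0.0487, 0.152, 0.0262, 0.291 and 0.543 RPKM in SPOPwt, with 0 in both S5 libraries. Every pair of S0 to S4 was higher in SPOPmut, with ratios of 15.4, 6.13, 14.7, 4.28 and 2.14, although the lowest SPOPmut library lay below the highest SPOPwt library. About 15 to 48 reads stood behind each SPOPmut value and 1 to 23 behind each SPOPwt value. The mean difference was 0.53 on the log2 scale, and 1.54 with a pseudocount of 0.1. With this filter no gene, chemokine ligand or other, passed limma's adjusted p of 0.05. The other genes that it let in had differences of 0.13 (Ccl27a, SE 0.09), 0.09 (Ccl5, SE 0.07), 0.06 (Cxcl3, SE 0.09), -0.02 (Cxcl17, SE 0.07) and -0.03 (Ccl25, SE 0.06). Ccl6 passed neither filter and was not tested.

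**Figure D4:**
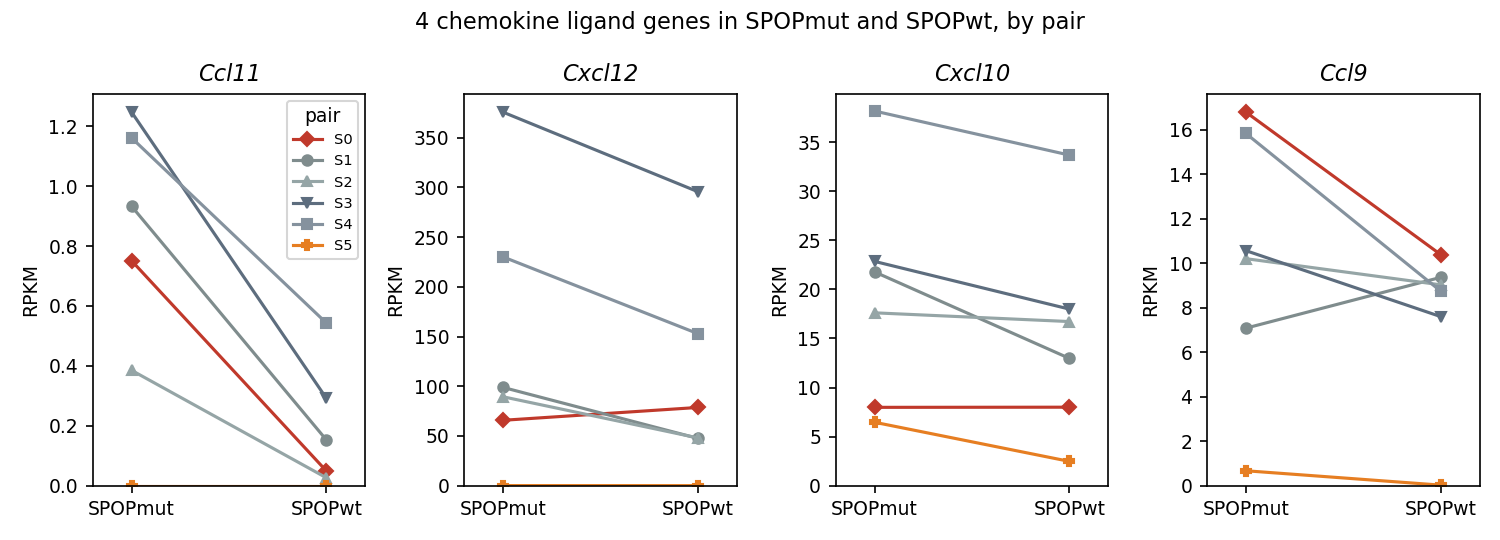
RPKM of Ccl11, Cxcl12, Cxcl10 and Ccl9 in SPOPmut (left) and SPOPwt (right), with a line for each of the 6 pairs. Ccl11 is higher on the left in all 5 pairs of S0 to S4 and 0 in S5, and Cxcl12 is higher on the left in S1 to S4 but not in S0.

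Of the other tested genes, Ccl20 (0.36, SE 0.16, limma adjusted p = 0.887) and Cx3cl1 (0.24, SE 0.12) were higher in SPOPmut in 5 of 6 pairs, and Cxcl16 (0.54, SE 0.26) in 4. Ccl7 (0.19, SE 0.17), Ccl2 (0.22, SE 0.26) and Ccl8 (0.06, SE 0.07) had standard errors about as large as their differences. Without S0 the difference was 0.20 for Ccl20, 0.24 for Cxcl16 and 0.05 for Ccl7. Cxcl1 was the 1 gene that was lower in SPOPmut in 5 of 6 pairs. In S1 to S5 its differences were -0.57 to -0.087, and in S0 it was 2.09. Its mean was 0.06 (SE 0.33), and without S0 it was -0.34 (SE 0.08, limma adjusted p = 0.456). Cxcl2, Cxcl5 and Cxcl15 had means of 0.51 (SE 0.48), 0.30 (SE 0.46) and 0.25 (SE 0.58).

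S0, shown apart, had wide differences in these genes, and a single pair allows no test. Its SPOPmut library exceeded its SPOPwt library by at least 1 on the log2 scale for 7 of the 13 genes, where 4.15% of all genes did. These were Ccl2 (1.60), Ccl20 (1.16), Cxcl1 (2.09), Cxcl2 (3.51), Cxcl5 (3.18), Cxcl15 (3.71) and Cxcl16 (2.00). The same 7 stood in the S0 SPOPwt library at least 2-fold below the lowest SPOPwt library of S1 to S4, where 1.16% of all genes did. In the S0 SPOPmut library 1 of the 13, Cxcl10, was that far below SPOPmut of S1 to S4, where 0.36% of all genes were. Both limits were chosen after the values were seen, and 0.1 RPKM was added to each value before the 2-fold limit was applied. Cxcl2, for example, was at 74.3 RPKM in S0 SPOPmut and 5.59 RPKM in S0 SPOPwt, against 20.9 to 42.1 RPKM in SPOPmut and 29.3 to 39.0 RPKM in SPOPwt of S1 to S4. The S0 SPOPmut library was thus above its group for Cxcl2, and also for Cxcl1 and Ccl9, and inside it for Ccl2, Ccl7, Cxcl5, Cxcl15 and Cxcl16.

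**Figure D5:**
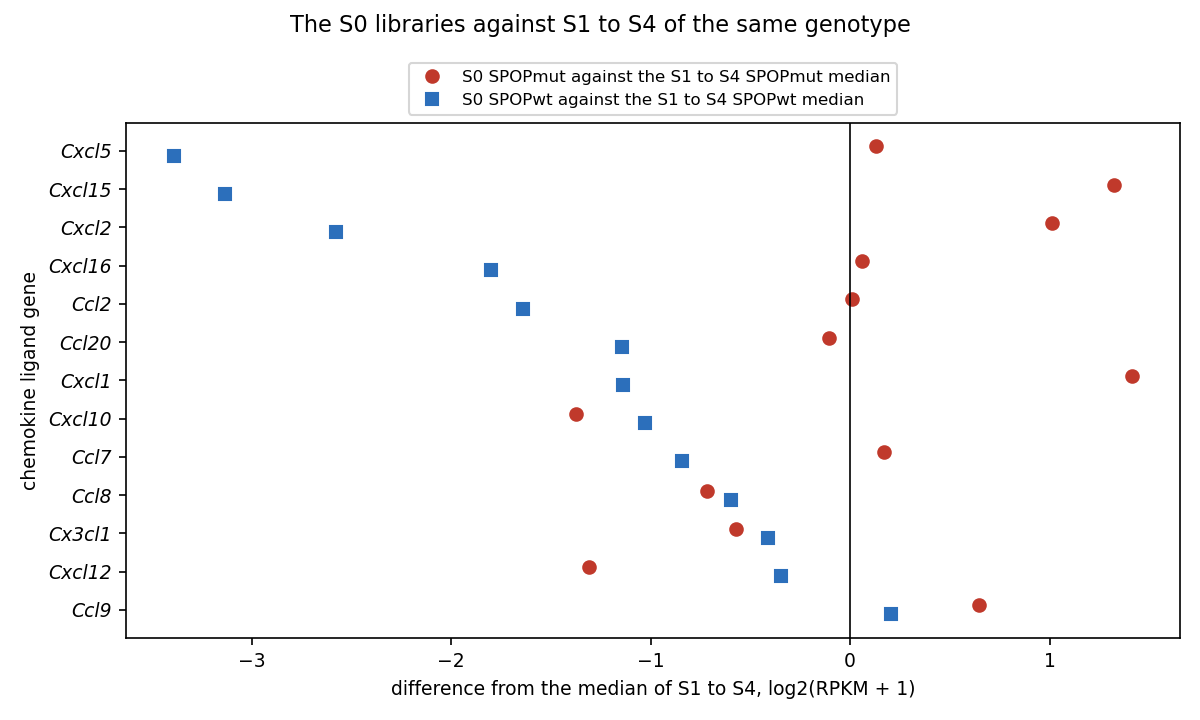
Difference in log2(RPKM + 1) between an S0 library and the median of S1 to S4 of the same genotype, for the 13 tested genes (circles SPOPmut, squares SPOPwt). The SPOPwt squares reach -3.39 (Cxcl5) and -3.13 (Cxcl15) and lie left of 0 for all genes but Ccl9, while the SPOPmut circles lie between -1.38 and 1.41.

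Other genes moved in S0 as well. Acta2, smooth muscle actin, was at 107 RPKM in S0 SPOPmut and 758 RPKM in S0 SPOPwt, against 149 to 432 RPKM in S1 to S4. Its list went both ways in S0. Tagln (-2.94) and Vim (-0.54) were also lower in SPOPmut. Cdh11 (1.41), Pdgfra (1.30), Pdgfrb (1.11), Col1a2 (0.28), Col1a1 (0.10) and Col3a1 (0.06) were higher. Over all genes, 4.15% were higher in S0 SPOPmut by at least 1. Nfkbia, the NF-kB inhibitor that NF-kB itself induces, was higher in S0 SPOPmut by 1.60, the adhesion gene Vcam1 by 2.12 and Krt18, a luminal keratin, by 2.27. The part of these genes and of cell makeup in the S0 values was not tested.

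Apart from the atypical receptor Ackr3, at 2.52 to 41.2 RPKM, the receptors of these ligands were hardly expressed. Of 18 chemokine receptor genes, 3 were listed at 0 throughout and only Ccr10 passed 1 RPKM in any library, at most 1.39 RPKM, so none was tested. Among the genes that handle chemokines after secretion, Adam10, a protease that sheds Cx3cl1 and Cxcl16, was at 24.7 to 34.7 RPKM, and Mmp14, the most abundant protease listed, at 59.4 to 178 RPKM. Mmp2, which trims Ccl7 and Cxcl12, was higher in SPOPmut in 5 of 6 pairs by 0.34 (limma adjusted p = 0.881). Of 4 tested proteases, 3 means were above 0 and none was called.

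Inducers and companions of the chemokine genes gave no call either. Of 18 tested cytokine and NF-kB genes, 14 means were above 0 and 4 below, with a median of 0.11, where 50.2% of all genes had a mean above 0. Without S0, a setting added for these lists after the data were seen, it was 11 above and 7 below, with a median of 0.06, where 54.5% of all genes were above 0. Ptgs2, an inducible prostaglandin synthase, was at 41.8 to 255 RPKM. The smallest p values were those of Relb, an NF-kB subunit (0.34, limma adjusted p = 0.881), and Nfkb1 (0.24, adjusted p = 0.881). Of 12 tested interferon-induced genes, all 12 means were above 0, with a median of 0.24, and 3 had an unadjusted p under 0.05. Without S0, Gbp2 and Irf1 were below 0 and the median was 0.14. Ddx58, an RNA sensor, was higher in SPOPmut in 6 of 6 pairs by 0.33 (limma adjusted p = 0.881), and Oasl2 in 4 of 6 by 0.37 (adjusted p = 0.886). Of 10 cytokine and Toll-like receptor genes, 9 means were above 0, and 8 without S0. Tnfrsf1a, the main TNF receptor, was the most abundant at 31.4 to 67.7 RPKM, and Tlr3, a sensor of double-stranded RNA, was higher in SPOPmut in 6 of 6 pairs by 0.31 (limma adjusted p = 0.871). The S5 libraries also stood apart in Il1a, an epithelial alarm cytokine, at 143 RPKM (S5 SPOPmut) and 182 RPKM (S5 SPOPwt) against at most 0.180 RPKM in S0 to S4.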

How the data were processed

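RNA-seq of 6 SPOPmut and 6 SPOPwt libraries was deposited as RPKM per gene, which the authors computed. The aligner STAR 2.4.0j is listed in the submitters' processing notes, with mm10 and GRCm38 as builds. Which program counted reads, on which annotation, and how multiply mapping reads were treated is not given in the sources used here. Libraries were made with TruSeq v2 and read as pairs of 51 bases, per the labels' protocols. The spacing of low values gave an estimated depth of 28400000 to 40800000 reads. Whole reads could not be recovered, so counts were not tested and counting intervals are left out.

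Values were tested as log2(RPKM + 1), which understates the change of low genes. limma 3.58.1 (R 4.3.3) was fitted, with pair and genotype as terms and a variance prior that was trended and robust, to the 13600 genes at 1 RPKM or more in at least 6 libraries. The p-values are two-sided, with Benjamini-Hochberg adjustment over all genes, and were called under 0.05, and the fit was tested on simulated data. The pairs come from shared numbers and from protocols that speak of pairs. Same-numbered libraries deviated from their group means together in S1 to S5 (correlations across genes of 0.753 to 0.954) but hardly in S0 (0.0602). Tables and figures used Python 3.11.15, pandas 2.3.3, numpy 2.4.6 and matplotlib 3.10.9. Positions are from GENCODE M21 and windows from RefSeq.

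The members, the gene lists and the tests were chosen with earlier results of these data known. Every gene of the rule at 1 RPKM or more in some library is named, with full statistics for the 3 of smallest p. From other lists, genes of small p or high level are named, but not from every list. The endothelial markers are not described. Ppbp, Adam10, Krt5, Col1a1, Acta2, Nfkbia, Vcam1, Krt18, Krt19, Cd24a, Hoxb13, Epcam, Cdh1, Ptgs2 and Il1a, and the fibroblast markers, were picked after their values were seen. Alternatives were the pseudocount, filter, scaling, weights, variance prior, block and each pair left out.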

Additional observations from a re-analysis of the deposited data

Results flagged for a closer look

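A library or pair was taken as standing apart where its gap to the nearest of the other 5 values, divided by the range of the 6, was above Dixon's 95% critical value. Of 39 groups of the 13 tested genes, 15 were flagged. Chance flags about 1 in 20 independent groups, but S5 had already been set apart by marker genes of these same libraries. Ccl2, Ccl7, Ccl9 and Cxcl12 also passed the filter through S0 to S4 libraries alone. The count is thus a description and not support.

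In 11 of the 15 it was the S5 library of a group. For Ccl2 the gap was 0.934 of the range in SPOPmut and 0.754 in SPOPwt, for Ccl7 it was 0.929 and 0.839, for Ccl9 it was 0.666 and 0.884, and for Cxcl12 it was 0.704 and 0.679, with S5 lowest in each. With S5 highest, it was 0.781 in SPOPmut and 0.838 in SPOPwt for Cxcl1, and 0.63 in SPOPmut for Ccl20.

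In the other 4 it was the S0 pair, whose difference SPOPmut minus SPOPwt was the highest. The gap was 0.848 of the range for Cxcl5, 0.845 for Cxcl2, 0.819 for Cxcl1 and 0.641 for Cxcl15.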

How the results depend on the processing

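Genotype calls among the 13 chemokine ligand genes were 0 in each setting, with adjusted p of 0.0521 to 1.0 over 16 settings, and 204 of the other values kept their direction and side of the threshold. Over all genes, weighting the pairs called 9 genes, none of them a chemokine ligand gene, against 0 otherwise. Without the replicate block, 0 genes were called and 29 had an unadjusted p under 0.05, against 761 with it. Genes that differ between pairs numbered 3901 to 11214 with S5 or S0 left out (9282 with all pairs), of them 5 to 13 chemokine ligand genes (11 with all pairs), and 17 of 19 with the filter of 2 libraries, which Cxcl3, Cxcl17 and Ccl25 passed only through the S5 libraries, so that this count is not support. Without S0 the mean difference reversed for Ccl2 (-0.061), Cxcl1 (-0.34), Cxcl15 (-0.44), Cxcl2 (-0.092) and Cxcl5 (-0.28), because S0 carried their positive means. With each other pair left out in turn the means reached 0.43, 0.19, 0.61, 0.70 and 0.47. Without S0 and S5 these were -0.081, -0.40, -0.54, -0.13 and -0.35. With pair weights, Ccl2 (-0.023), Cxcl1 (-0.40), Cxcl15 (-0.38) and Cxcl5 (-0.14) reversed, S0 having the lowest weight. Cxcl3 reversed to -0.019 with the filter of 2 libraries and without S5, a setting added after the data were seen; the cause was not tested. Quantile scaling gave 473 genes higher and 353 lower at an unadjusted p under 0.05, against 520 and 241 as deposited. Values of Ccl11, Ccl5, Ccl6 and Ccl8 rest on few reads. So do those of Cxcl17 in S0 to S4 (about 0 to 10 reads per library) and of Ccl20 in S0 SPOPwt (about 4 reads), which enters its S0 difference.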
